A study of Saccharomyces cerevisiae with 44 samples.

Results

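Entry into the growth burst of a fast metabolic cycle was followed in 10 of the 44 RNA-seq libraries of a study of budding yeast (Saccharomyces cerevisiae, strain CEN.PK122). Time points 8, 9, 18 and 19 of the fast culture formed the burst (4 libraries). Time points 5, 6, 7, 15, 16 and 17 formed the window just before it (6 libraries). The windows were chosen from the measured RPKM values of these same libraries (reads per kilobase of gene body per unit of library size), so the difference between them is given as a description, with no p.

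The series measured poly(A) RNA from continuous cultures on minimal medium with 1% glucose. The fast culture was diluted at 0.12 to 0.13 per h and sampled 20 times, once in 13 min. The slow culture, used here only beside the fast one, was diluted at 0.045 to 0.05 per h and sampled 24 times, once in 36 min. Each covered 2 cycles, and both cultures were starved before feeding began. In the fast culture each cycle was taken as 10 time points. Time points 15 to 19 are therefore called positions 5 to 9 of cycle 2, whether or not they fell at the same phase. The labels give no replicate cultures, no mating type and no ploidy. The libraries of a condition are therefore time points of 1 culture, and p-values measure the spread between its cycles and time points, not between cultures.

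In the yeast metabolic cycle, cells of a dense, glucose-limited culture synchronise and alternate between a phase of stored carbohydrate, slow growth and low respiration and a phase of rapid oxygen use. Genes for making ribosomes and proteins are known to be transcribed together in the oxidative phase, ahead of genes for mitochondrial biogenesis and DNA replication. Ribosome assembly factors and ribosomal proteins are under control of the TOR and protein kinase A pathways in yeast, which also hold back the transcription factors Msn2 and Msn4 of the stress genes.

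The 10 libraries held 8.19 to 19.7 M reads, the deepest being time point 6. External control RNAs took 0.462% to 1.60% of gene reads before the burst and 0.717% to 1.36% at the burst, so the shares overlapped. RPKM values are shares of a library: the median of all 5820 genes tested was 0.12 higher at the burst on the log2(RPKM + 1) scale, and rescaling by the median ratio between libraries moved that median to 0.01. The library at time point 17 stood apart from the other 5 libraries before the burst. Against the mean of the 2 preceding time points, 801 genes were at least 2-fold higher and 245 at least 2-fold lower at time point 17. At time point 7, the same position of cycle 1, these numbers were 112 and 24. Against the mean of time points 5 and 6, they were 1034 and 813 at time point 8 and 885 and 375 at time point 9. Against that of time points 15 and 16, they were 979 and 546 at time point 18 and 812 and 408 at time point 19. In genes higher, time point 17 was thus nearer to the burst libraries than to time point 7, and in genes lower it lay between them. Results are given with and without this library, labelled as the last point before the second burst, a choice made after its values were seen. Per the labels' protocols RNA was harvested in 4 randomly formed sets of samples. Which library was in which set is not stated there, so a link of time point 17 to these sets was not tested.

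Across all genes, 518 genes (8.9% of those tested) were called higher at the burst and 400 (6.87%) lower. A call means an adjusted p under 0.05 in limma and a change of at least 2-fold. For the windows of the fast and the slow culture a call only marks size against spread and is no test, because the windows were chosen on the same values. Without time point 17, 825 genes (14.2%) were called higher and 459 (7.89%) lower, and 514 of the 518 and 398 of the 400 were among them. In 838 genes (14.4%) all 4 burst libraries lay above all 6 earlier ones, and in 669 (11.5%) all lay below. Without time point 17 the numbers were 1642 (28.2%) and 1140 (19.6%). Since the windows were chosen on these values, nothing is read from these shares. Genes called higher had a median gene body of 1097 bases and those called lower 1067 bases, against 1184 bases over all genes tested.

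**Figure D1:**
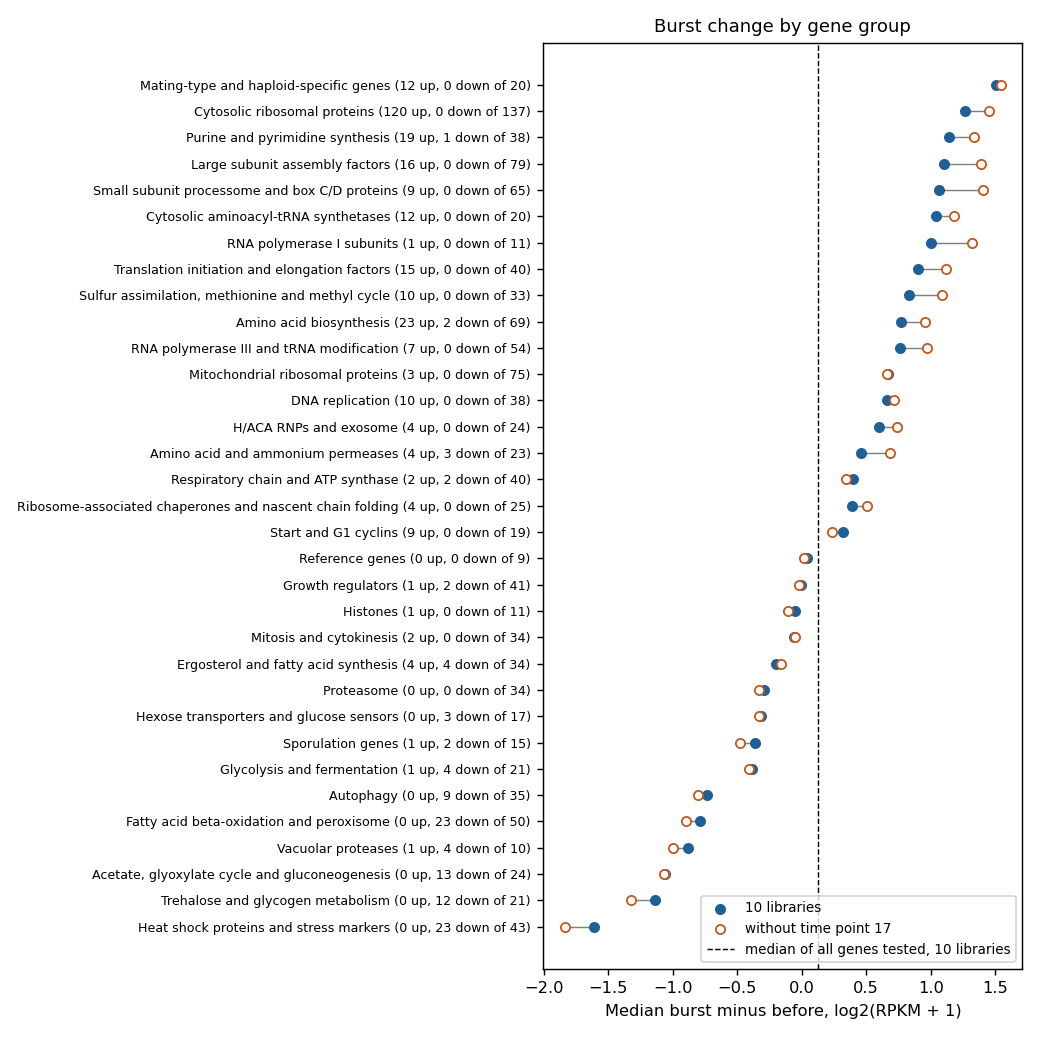
Each line is 1 of 33 gene lists, and the x axis gives the median over its tested genes of the burst minus the window before it, on the log2(RPKM + 1) scale. Filled points use all 10 libraries and open points leave out time point 17, which moved the small subunit processome from 1.07 to 1.41 and the mating-type genes only from 1.50 to 1.54. The dashed line at 0.12 is the median of all genes tested, and the counts beside the names are genes called higher and lower with all 10 libraries.

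The list medians of ribosome assembly genes stood higher at the first burst time point than at the second. In the list of the small subunit processome and box C/D proteins, which cleave and methylate ribosomal RNA, 9 of 65 tested genes were called higher and 0 lower with all 10 libraries. That was 13.85% higher, beside 8.9% over all genes. Without time point 17, 57 of the 65 (87.7%) were called higher, beside 14.2% over all genes. For the large subunit assembly factors the number went from 16 (20.25%) to 67 (84.8%) of 79. For RNA polymerase I, which transcribes ribosomal RNA, it went from 1 (9.09%, near the share over all genes) to 6 of 11. Time point 17 was the highest earlier library for these list medians, so leaving it out raises the change by construction. The list medians show the course: relative to time points 5, 6, 15 and 16, the small subunit processome stood at 0.82 at time point 7, 2.49 at 8 and 1.06 at 9 on the log2 scale. In cycle 2 it stood at 2.17 at time point 17, 1.89 at 18 and 0.83 at 19. The highest point of this list was thus 1 sampling interval earlier in cycle 2 than in cycle 1, on the far side of the boundary drawn between the windows.

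NSR1, a nucleolin-like protein of the nucleolus (YGR159C, sacCer3 chromosome VII, 806412 to 807656, minus strand), shows this course in single libraries. Its level before the burst was 38.6 RPKM at the lowest library, 59.7 at the median and 950 at the highest, which was time point 17. At time points 8, 9, 18 and 19 it was 819, 116, 371 and 107 RPKM. The groups overlapped, because time point 17 exceeded every burst library. The change was 1.32 ± 0.94 (SE) on the log2 scale and was not called, while without time point 17 it was 1.96 and called.

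NOP1, the methyltransferase of box C/D particles, ranged from 66.9 over a median of 77.0 to 458 RPKM before the burst. Its burst values were 690, 234, 476 and 180 RPKM, a change of 1.62 ± 0.57 that was called, and of 2.03 without time point 17. RPA190, the largest subunit of RNA polymerase I, ranged from 17.5 over 22.5 to 77.2 RPKM before and stood at 153, 63.5, 119 and 38.7 RPKM at the burst. Both genes overlapped between the groups only through time point 17, and at each burst the first time point was the higher one. The helicase DBP2, which acts in ribosome and RNA processing, ranged from 10.4 over 15.3 to 172 RPKM before and stood at 257, 41.7, 132 and 32.2 RPKM at the burst. Its groups overlapped with all libraries and also without time point 17. MDN1, the giant ATPase of large subunit assembly, was the member of its list with the largest change. It ranged from 6.08 over 8.29 to 18.5 RPKM before and reached 50.6, 39.4, 53.1 and 22.3 RPKM at the burst, with no overlap even with time point 17 included.

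Promoters of these genes are shown because they share a pair of motifs that the choice of windows did not use. The capitals mark the PAC box core GATGAG, bound by Dot6 and Tod6, and the RRPE core AAAAATTT, bound by Stb3, on either strand. The stretches run 5′ to 3′ along the gene's strand and were read from the reference genome (NCBI RefSeq, same build as the files, strain S288C). The NSR1 stretch is at chrVII:807826-807873 on the minus strand, from 217 to 170 bases before the gene start. That of DBP2 is at chrXIV:413472-413514, that of NOP1 at chrIV:427128-427177 and that of RPA190 at chrXV:960783-960832, all on the plus strand.
NSR1: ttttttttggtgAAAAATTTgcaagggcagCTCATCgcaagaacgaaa
DBP2: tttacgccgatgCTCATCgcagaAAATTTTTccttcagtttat
NOP1: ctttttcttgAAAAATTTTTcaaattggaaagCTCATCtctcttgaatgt
RPA190: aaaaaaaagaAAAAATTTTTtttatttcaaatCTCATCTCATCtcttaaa
In NOP1 and RPA190 the RRPE core occurs on both strands at overlapping positions, which gives the run of 10 capitals, and in RPA190 a pair of PAC cores overlaps.

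Motif shares were counted in the 300 bases before the gene start, on both strands, with each promoter counted once per motif. The PAC core was in 18.6% of all 5809 promoters with a window, in 89.2% of the 65 small subunit processome genes, in 86.1% of the 79 large subunit factors and in 9 of the 11 RNA polymerase I genes. The RRPE core was in 15.4% of all promoters and in 83.1%, 82.3% and 54.5% of these lists. Among cytosolic ribosomal proteins the shares were 11.7% and 13.1%, and the Rap1 core CACCCNNAC was in 6.57% against 2.17% of all promoters. The RRPE core was also in 70.0% of the 40 translation factor and 85.0% of the 20 cytosolic aminoacyl-tRNA synthetase promoters. There the PAC core was in 20.0% of each, near its share of all promoters. Among the genes called higher at the burst, the PAC core was in 22.8% with all libraries and in 35.9% without time point 17. A match describes these letters only, and no test of enrichment was made.

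**Figure D2:**
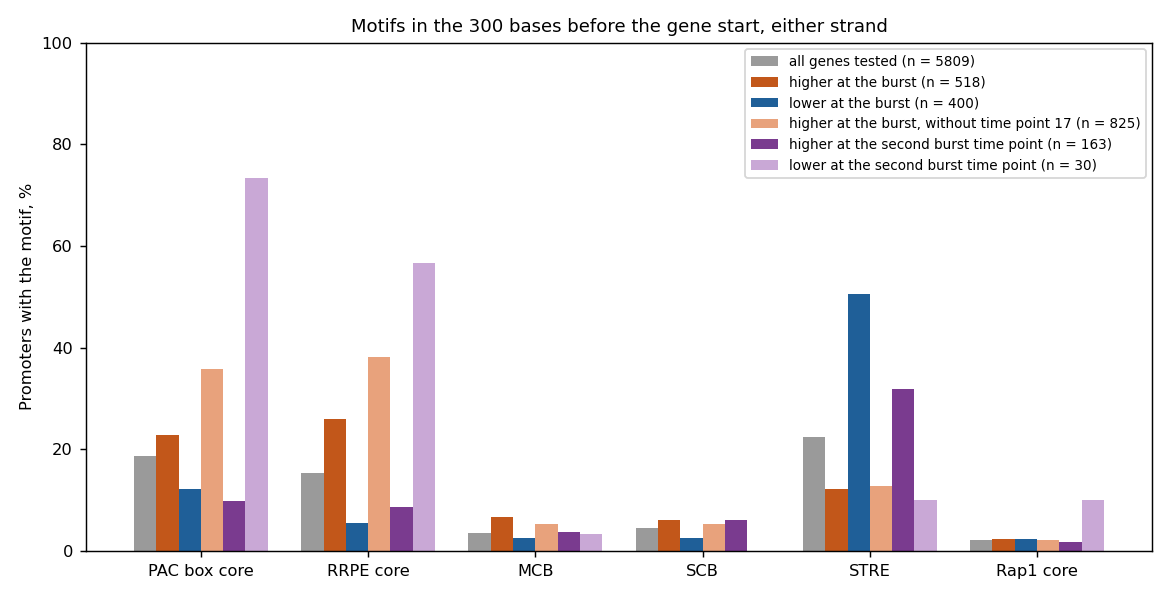
Bars give the percentage of promoters that hold each motif on either strand in the 300 bases before the gene start, for all genes tested and for 5 sets of called genes. The PAC and RRPE cores were in 73.3% and 56.7% of the 30 genes called lower at the second burst time point, and the STRE was in 50.5% of the 400 genes called lower at the burst.

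Cytosolic ribosomal proteins were called higher in 120 of 137 genes, and in 129 without time point 17. No member was called lower, and the list median was 1.26 with and 1.45 without that library. Summed over the list, the level was 28677 to 38806 RPKM at time points 5, 6, 7, 15 and 16 and 71869 RPKM at time point 17. It was 116930, 75889, 108580 and 74146 RPKM at the burst, so all 4 burst libraries lay above all earlier ones. Values of near-identical pairs such as RPL9A and RPL9B are uncertain, because the sources used here do not give how reads with several matches were treated.

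RPL3, a large subunit protein encoded by a single gene (YOR063W, chromosome XV, 444686 to 445849), ranged from 471 over 514 to 1268 RPKM before the burst. It stood at 1848, 1490, 1702 and 1285 RPKM at the burst, a change of 1.40 ± 0.27, with no overlap between the groups. RPL9A had the largest change of the list, 2.24 ± 0.43, from 60.1 over 78.9 to 304 RPKM before to 649, 382, 596 and 296 RPKM at the burst. Only time point 19 of its burst libraries lay below time point 17.

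Translation factors were called higher in 15 of 40 genes and cytosolic aminoacyl-tRNA synthetases, which charge tRNAs with amino acids, in 12 of 20, with none lower. YEF3, a fungal translation elongation factor, ranged from 163 over 199 to 1045 RPKM before and stood at 1805, 844, 1496 and 587 RPKM at the burst. Its change was 1.99 ± 0.53, and the groups overlapped through time point 17. HTS1, the histidyl-tRNA synthetase, ranged from 52.6 over 56.8 to 121 RPKM before and stood at 181, 147, 175 and 130 RPKM at the burst, with no overlap. Among chaperones of nascent chains 4 of 25 genes (16.0%) were called higher: SSB1, SSB2, ZUO1 and KAP123, the last a nuclear importer. SSB1 and SSB2 are near-identical paralogs and their levels are uncertain. In RNA polymerase III and tRNA modification 7 of 54 genes (12.96%) were called higher, and 26 (48.15%) without time point 17. In the H/ACA particles and exosome the numbers were 4 (16.7%) and 9 (37.5%) of 24. The shares over all genes were 8.9% with and 14.2% without time point 17.

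**Figure D3:**
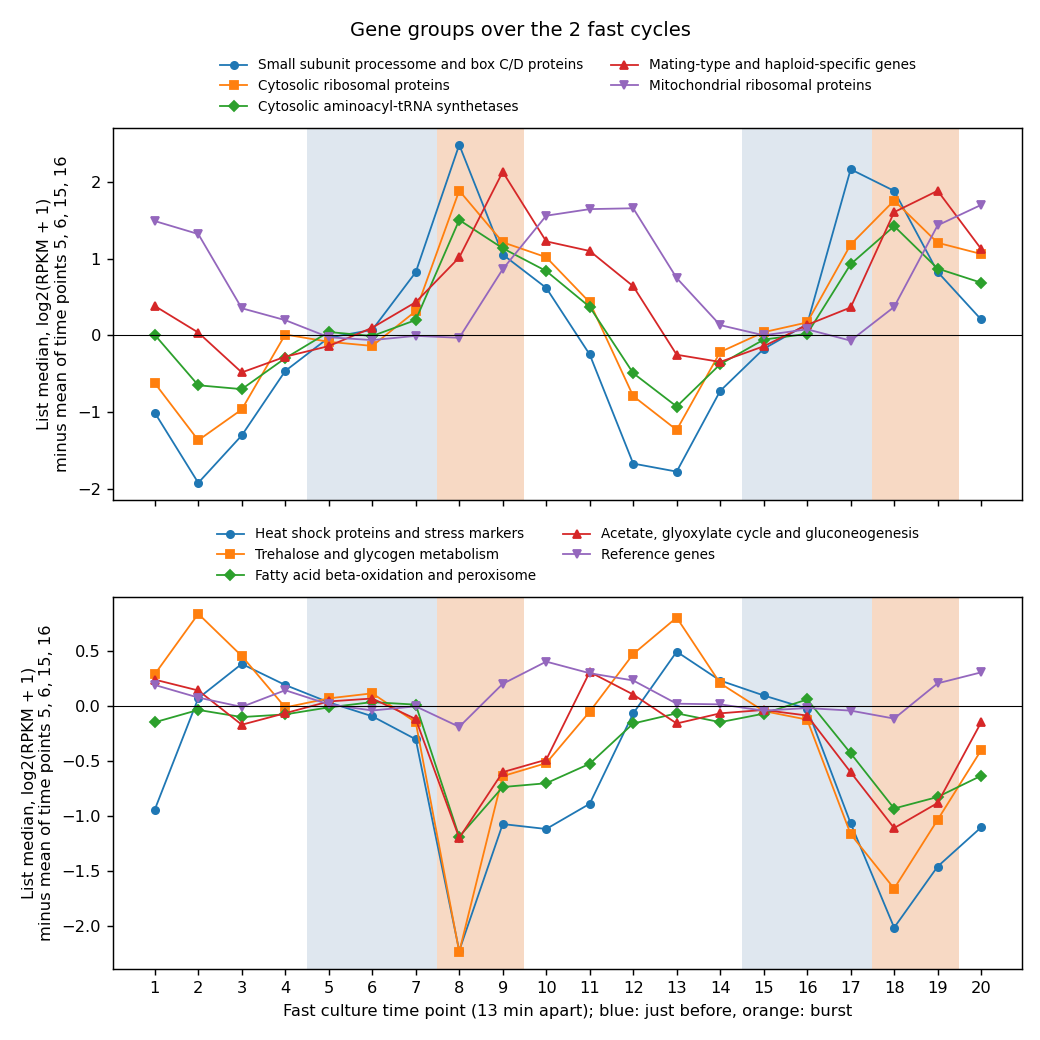
List medians over the 20 time points of the fast culture, as log2(RPKM + 1) minus the mean of time points 5, 6, 15 and 16, with the window before the burst in blue and the burst in orange. The small subunit processome reached 2.49 at time point 8 but 2.17 already at time point 17, the mating-type list reached 2.13 at time point 9, and the mitochondrial ribosomal proteins went on to 1.56 at time point 10, after the burst window. The heat shock list stood at -2.23 at time point 8 and -2.02 at time point 18, while the reference genes stayed between -0.19 and 0.40.

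Of 38 genes of purine and pyrimidine synthesis 19 were called higher and 1 lower, and 28 and 1 without time point 17. ADE17, which carries out the last steps of purine ring synthesis, ranged from 72.6 over 131 to 388 RPKM before and stood at 960, 1029, 967 and 926 RPKM at the burst. Its burst libraries were all alike and all above the earlier ones, for a change of 2.78 ± 0.40. The gene called lower was URA10, a minor isozyme of orotate phosphoribosyltransferase, and it was picked out after its value was seen.

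Of 33 genes of sulfur assimilation, methionine synthesis and the methyl cycle, 10 were called higher and 0 lower, and 19 and 0 without time point 17. SAM1, a synthase of the methyl donor S-adenosylmethionine, ranged from 55.5 over 72.5 to 643 RPKM before and stood at 811, 429, 497 and 446 RPKM at the burst. MET6, the methionine synthase, ranged from 277 over 352 to 1374 RPKM before and stood at 1891, 1280, 1309 and 1306 RPKM. In both genes time point 17 was higher than 3 of the 4 burst libraries. Amino acid biosynthesis had 23 of 69 genes called higher and 2 lower, and 31 and 3 without time point 17. SHM2, the cytosolic serine hydroxymethyltransferase, ranged from 95.8 over 134 to 752 RPKM before and stood at 1662, 1074, 1121 and 955 RPKM, with no overlap. The genes called lower were ARO9, an aromatic aminotransferase induced for aromatic amino acid breakdown, and BAT2, a branched-chain aminotransferase. ARO9 ranged from 100 over 231 to 274 RPKM before and stood at 23.3, 7.72, 13.3 and 6.58 RPKM at the burst.

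Of 23 amino acid and ammonium permeases 4 (17.4%) were called higher and 3 (13.0%) lower, beside 8.9% and 6.87% over all genes. Without time point 17 the counts were 9 and 3, and the list median went from 0.46 to 0.69. The ammonium permease MEP2 ranged from 206 over 434 to 1667 RPKM before and stood at 2038, 2208, 2410 and 1615 RPKM at the burst, so only time point 19 lay within the earlier range. The basic amino acid permease ALP1 went the other way, from 33.4 over 47.3 to 54.8 RPKM before to 11.1, 4.44, 3.98 and 4.40 RPKM at the burst, with no overlap. Of 34 genes of ergosterol and fatty acid synthesis 4 were called higher and 4 lower, and 4 and 6 without time point 17. With all libraries that was 11.8% each way, beside 8.9% higher and 6.87% lower over all genes. ERG4, the last enzyme of ergosterol synthesis, changed by 2.37 ± 0.29 and FAA1, an acyl-CoA synthetase that activates fatty acids, by -2.47 ± 0.23, both with no overlap.

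The 8 called genes with the largest increase and no overlap were PRY2, HO, GIC2, TOS6, SCW10, AGA1, PCL1 and YMR304C-A. YMR304C-A (chromosome XIII, 878780 to 879130) overlaps SCW10 (879063 to 880232) on the same strand, so these are not independent measurements. PRY2, a secreted sterol-binding protein, ranged from 20.4 over 28.4 to 52.2 RPKM before and stood at 178, 526, 272 and 549 RPKM at the burst. Its change of 3.52 ± 0.35 was 11.4-fold. GIC2, an effector of the polarity GTPase Cdc42, ranged from 20.3 over 28.6 to 75.6 RPKM before and stood at 264, 403, 412 and 295 RPKM. In PRY2 the second time point of each burst was the higher one, which was not so for GIC2 in cycle 2.

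Of 19 genes of Start, the commitment to a new cell division, and G1 cyclins 9 were called higher and 0 lower, while the list median was only 0.32. CLN3, the G1 cyclin upstream of Start, ranged from 40.6 over 49.7 to 117 RPKM before and stood at 169, 141, 169 and 111 RPKM at the burst. CLN2, a G1 cyclin downstream of it, ranged from 22.9 over 24.4 to 40.5 RPKM before and stood at 152, 324, 173 and 261 RPKM. CLN3 was higher at the first time point of each burst and CLN2 at the second, and time point 17 was high for CLN3 but not for CLN2. PCL1, a cyclin of the kinase Pho85, ranged from 25.1 over 38.9 to 41.8 RPKM before and stood at 179, 347, 268 and 401 RPKM. CLN1 was called higher with all libraries (1.08 ± 0.26) but not without time point 17 (0.95), where it was at its lowest, 31.3 RPKM.

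DNA replication genes were called higher in 10 of 38. RNR1, the large subunit of ribonucleotide reductase, ranged from 19.3 over 20.3 to 23.5 RPKM before and stood at 81.0, 201, 159 and 183 RPKM at the burst. POL30, the sliding clamp PCNA, ranged from 24.3 over 33.5 to 41.9 RPKM before and stood at 80.5, 199, 143 and 209 RPKM. In both genes time point 8 was the lowest burst library and still well above all earlier ones. Of other stages, 1 of 11 histone genes (HTB2, 9.09%) and 2 of 34 genes of mitosis and cytokinesis (5.88%) were called higher, near the 8.9% over all genes, with list medians of -0.05 and -0.06. The histone median differed within the burst, at -0.38 and -0.05 at time points 8 and 9 and at -0.24 and 0.11 at time points 18 and 19, relative to time points 5, 6, 15 and 16. The called genes of mitosis and cytokinesis were DSE2 and CTS1, which act in separating daughter from mother cells, and both overlapped between the groups.

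A promoter stretch of each of POL30 and HO is shown with its cell cycle box in capitals, the MCB (ACGCGT) for POL30 and the SCB (CACGAAA) for HO. They lie at chrII:425944-425973 and chrIV:48262-48292, both on the minus strand.
POL30: ccaaaacgcgaaACGCGTaacttttttttt
HO: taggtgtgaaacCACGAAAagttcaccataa
The MCB was in 19 of the 38 DNA replication promoters against 3.6% of all promoters, and in 6.8% of the genes called higher at the burst. The SCB was in 6% of those against 4.5% of all. Of the 19 promoters of the Start and G1 cyclin list, 0 held the MCB and 1 held the SCB.

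Mating-type and haploid-specific genes were called higher in 12 of 20, with a list median of 1.50. HO, the endonuclease of mating-type switching, ranged from 6.88 over 9.05 to 16.2 RPKM before and stood at 89.1, 221, 72.4 and 158 RPKM at the burst. AGA1, the anchor of the mating agglutinin, ranged from 50.4 over 56.0 to 76.5 RPKM before and stood at 176, 963, 409 and 723 RPKM. FUS1, needed for cell fusion, ranged from 9.21 over 11.4 to 14.1 RPKM before and stood at 37.0, 158, 99.0 and 115 RPKM. MF(ALPHA)1, the main gene of the alpha pheromone, ranged from 68.4 over 125 to 327 RPKM before and stood at 865, 885, 1108 and 911 RPKM. None of these 4 genes overlapped between the groups.

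The list holds genes known to be specific to a cells and others known to be specific to alpha cells, and the 7 a-specific genes STE2, STE6, MFA1, MFA2, BAR1, AGA2 and ASG7 were all called higher. Of the 4 alpha-specific genes only MF(ALPHA)1 was. STE2, the receptor for alpha pheromone, was at 105 to 307 RPKM before and 627 to 1303 RPKM at the burst. STE3, the receptor for a pheromone, was at 10.5 to 15.5 RPKM before and 15.3 to 19.2 RPKM at the burst, a difference of 0.35 that was not called. These genes were picked out after their values were seen. Which cells of the culture these transcripts came from was not tested.

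**Figure D4:**
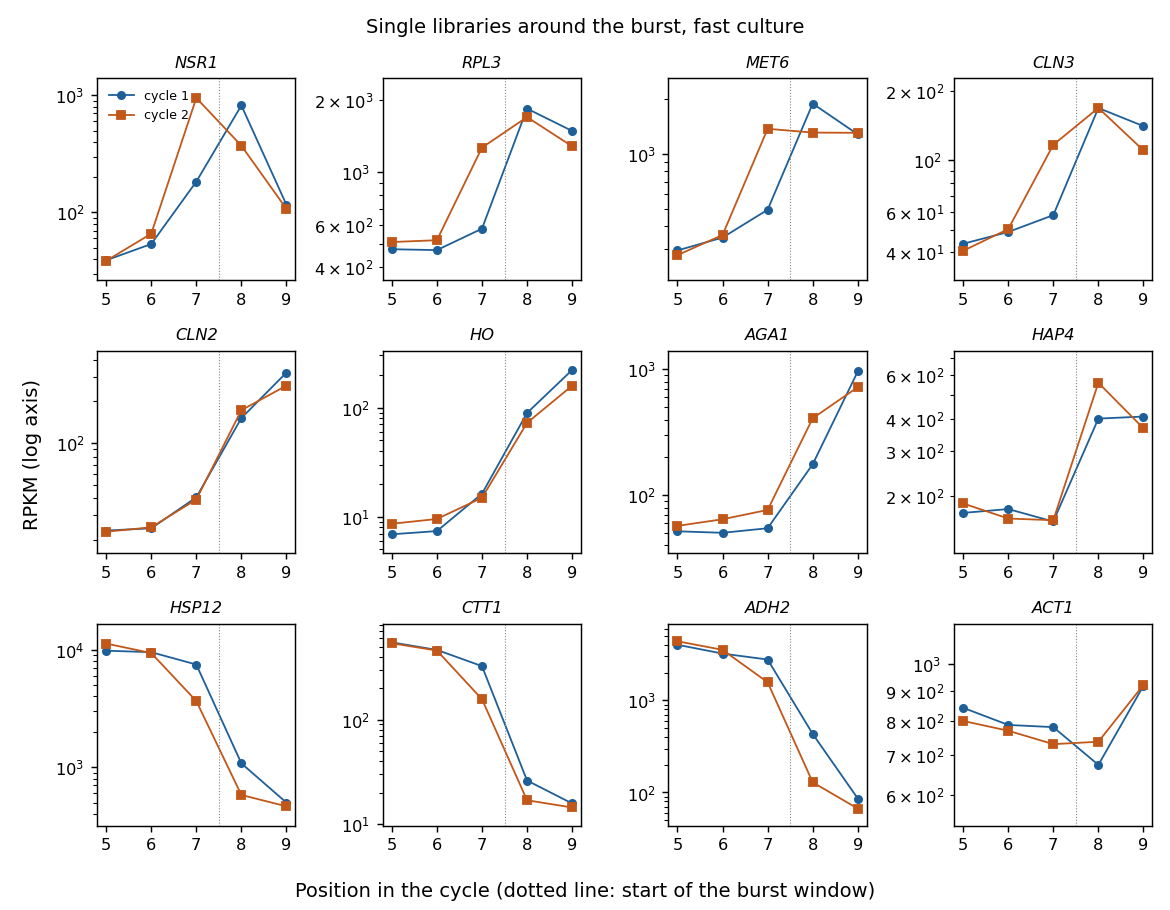
RPKM on a log axis at positions 5 to 9 of cycle 1 (circles) and cycle 2 (squares) for 12 genes, 1 point per library, with the dotted line at the start of the burst window. In NSR1 and MET6 the cycle 2 library at position 7 (time point 17) lay above the cycle 2 library at position 8, in CLN2 and HO both cycles ran together, and ACT1 stayed between 675 and 922 RPKM.

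Heat shock and other stress proteins protect cells that grow slowly or not at all. In the list of heat shock proteins and stress markers 23 of 43 genes were called lower and 0 higher, with a median of -1.61, and without time point 17 the count was 28. Summed over the list, the level was 47128 to 66184 RPKM at time points 5, 6, 7, 15 and 16, 27056 RPKM at time point 17 and 12216, 18926, 14133 and 18913 RPKM at the burst. HSP12, a small membrane-associated stress protein (YFL014W, chromosome VI, 107256 to 107585), ranged from 3650 over 9422 to 11251 RPKM before and stood at 1078, 499, 581 and 465 RPKM at the burst. CTT1, the cytosolic catalase, ranged from 157 over 462 to 549 RPKM before and stood at 26.1, 15.7, 16.9 and 14.4 RPKM. Neither gene overlapped, and in both the lowest library before the burst was time point 17.

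In trehalose and glycogen metabolism 12 of 21 genes were called lower and 0 higher. GIP2, a regulatory subunit of the phosphatase that acts on glycogen synthase, ranged from 98.8 over 381 to 414 RPKM before and stood at 35.5, 51.5, 27.1 and 40.1 RPKM. GSY2, the main glycogen synthase, ranged from 39.4 over 89.2 to 99.4 RPKM before and stood at 22.0, 57.8, 27.5 and 42.4 RPKM. Its values came back up within the burst, and time points 9 and 19 lay above time point 17.

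The promoters of 3 stress genes are shown with the stress response element (STRE, AGGGG) in capitals, here on the opposite strand as CCCCT. They lie on the plus strand at chrVI:107054-107082 for HSP12, chrVII:654489-654517 for CTT1 and chrXII:660508-660536 for GSY2.
HSP12: gttccggtcgtcCCCCTcttgatctgaaa
CTT1: catttatcgtatCCCCTactgctacacgt
GSY2: gaacgcaattcaCCCCTttctttcttatg
The STRE was in 22.5% of all promoters, in 50.5% of the genes called lower at the burst and in 12.2% of those called higher. By list it was in 58.1% of the heat shock, 47.6% of the trehalose and glycogen, 41.7% of the acetate and 16.0% of the beta-oxidation promoters.

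Acetate, ethanol and fatty acids are carbon sources that yeast uses when glucose is short. Of 24 genes of acetate use, the glyoxylate cycle and gluconeogenesis 13 were called lower, and of 50 genes of beta-oxidation and the peroxisome 23, with none higher in either list. The 8 called genes with the largest decrease and no overlap were FOX2, ADH2, ADY2, CTA1, CTT1, FAT3, POX1 and ACS1. FOX2, the second enzyme of beta-oxidation, ranged from 369 over 684 to 785 RPKM before and stood at 79.9, 17.4, 22.7 and 15.2 RPKM at the burst, a change of -4.52 ± 0.41. ADH2, the alcohol dehydrogenase that consumes ethanol, ranged from 1571 over 3377 to 4375 RPKM before and stood at 432, 86.0, 129 and 66.9 RPKM. ACS1, an acetyl-CoA synthetase, ranged from 877 over 2350 to 2896 RPKM before and stood at 241, 92.9, 73.1 and 67.6 RPKM. In all 3 genes time point 8 was the highest burst library and time point 17 the lowest earlier one.

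Of 10 vacuolar proteases and their regulators 4 were called lower and 1 higher, of 35 autophagy genes 9 were called lower, and of 34 proteasome genes none was called. The proteasome list had a median of -0.29 with 0 of 34 genes above 0. PRC1, carboxypeptidase Y, ranged from 624 over 865 to 990 RPKM before and stood at 292, 339, 232 and 357 RPKM, with no overlap. The protease called higher was YPS3, a yapsin of the cell surface. In glycolysis and fermentation 4 of 21 genes (19.05%) were called lower and 1 (4.76%) higher. TDH3, the main glyceraldehyde-3-phosphate dehydrogenase, ranged from 4476 over 6246 to 7064 RPKM before and stood at 2344, 2219, 1993 and 2639 RPKM. HXK2, the hexokinase of glucose-grown cells, was the gene called higher (1.42 ± 0.21). Among hexose transporters and glucose sensors 3 of 17 genes were called lower, led by HXT5, a transporter of slow-growing cells (-2.38 ± 0.24), and 0 higher. Of 15 sporulation genes 1 (6.67%) was called higher and 2 (13.3%) lower. The shares over all genes were 8.9% higher and 6.87% lower.

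Of 75 mitochondrial ribosomal proteins 3 (4.0%, beside 8.9% over all genes) were called higher (RSM26, MRPL15 and MRPL3) and 0 lower. Their list median of 0.67 lay above the 0.12 over all genes, and 73 of the 75 were above 0. The pooled value spans a course within the burst: relative to time points 5, 6, 15 and 16, the list median was -0.03 at time point 8 and 0.86 at 9, and 0.37 at time point 18 and 1.44 at 19. MRPL3 ranged from 46.9 over 56.3 to 56.9 RPKM before and stood at 70.9, 138, 80.5 and 179 RPKM at the burst. The second burst library was the higher one in each cycle. Of 40 respiratory chain and ATP synthase genes 2 (5.0%) were called higher and 2 (5.0%) lower, below the 8.9% and 6.87% over all genes. Their median was 0.40, with 37 of the 40 above 0. CYC1, the main cytochrome c, changed by 1.13 ± 0.25 while CYC7, its stress-linked isoform, changed by -1.84 ± 0.24. NDE2, an external NADH dehydrogenase, had the largest decrease of the list, from 209 over 433 to 453 RPKM before to 41.0, 46.5, 28.5 and 48.0 RPKM.

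Of 41 transcripts of growth regulators 1 was called higher (HAP4) and 2 lower (CRF1, TPK2), with a median of -0.01. These shares of 2.44% and 4.88% lay below the 8.9% and 6.87% over all genes. Without time point 17 the counts were 4 and 4 and the median was -0.02. Of 9 reference genes, chosen as steady transcripts, none was called, and their median was 0.04. CRF1, a co-repressor of ribosomal protein genes, ranged from 58.1 over 146 to 162 RPKM before and stood at 20.2, 13.3, 9.69 and 11.4 RPKM at the burst. HAP4, the regulatory subunit of the activator of respiratory genes, ranged from 159 over 167 to 187 RPKM before and stood at 403, 411, 557 and 369 RPKM. Neither gene overlapped, and time point 17 was low for HAP4. TPK2, a catalytic subunit of protein kinase A, ranged from 75.3 over 152 to 172 RPKM before and stood at 31.6, 96.7, 54.9 and 80.5 RPKM, so the second library of each burst lay within the earlier range.

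The levels of 3 regulators stood high at time point 17. TOD6, a repressor that binds the PAC box, was at 46.8 RPKM at time point 7, 163 at 8 and 65.5 at 9, and at 136 RPKM at time point 17, 121 at 18 and 41.1 at 19. IFH1, the co-activator of ribosomal protein genes, reached 77.0 RPKM at time point 17 and 42.0 RPKM at time point 8, against 11.7 to 15.2 RPKM at time points 5, 6, 15 and 16. It was back at 16.1 and 15.7 RPKM at time points 9 and 19. PDE2, a cyclic AMP phosphodiesterase, reached 152 RPKM at time point 17 against 54.2 at 7 and 55.1 at 8. IFH1 and PDE2 were picked out after their values were seen. The transcripts of SFP1 and SCH9, regulators of ribosome synthesis, changed by 0.23 and 0.11 and were not called.

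The order of the 2 burst time points was not used in choosing the windows and was tested. In the second against the first burst position (n = 2 libraries each, limma with Benjamini-Hochberg adjustment over 5820 genes), 163 genes (2.8%) were called higher and 30 (0.515%) lower. Of the mitochondrial ribosomal proteins 27 of 75 rose and none fell, beside a list median of 0.97 and a median of 0.10 over all genes. Of the histones 4 of 11 rose and of the respiratory chain genes 6 of 40. Members of other lists rose too: 5 of 43 heat shock, 3 of 24 acetate and glyoxylate, 3 of 20 mating-type and 2 of 21 trehalose and glycogen genes, with none lower. The STRE was in 31.9% of the 163 promoters of genes called higher, against 22.5% of all promoters. Of the ribosome assembly lists 7 of 79 large subunit factors and 6 of 65 small subunit genes fell. Cytosolic ribosomal proteins had a median of -0.63 with no member called in either direction.

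The 3 genes that rose most from position 8 to position 9 were AIM33, GDB1 and SNZ2. AIM33 went from 41.0 to 197 RPKM in cycle 1 and from 90.3 to 253 RPKM in cycle 2, by 1.86 (adjusted p = 0.0319 in limma). GDB1, the glycogen debranching enzyme, went from 10.4 to 67.0 and from 20.9 to 46.5 RPKM, by 1.85 (adjusted p = 0.0386 in limma). SNZ2, of vitamin B6 synthesis, went from 17.7 to 70.0 and from 33.3 to 113 RPKM (adjusted p = 0.0338 in limma). The genes that fell most were DBP2 (-2.30, adjusted p = 0.0468 in limma), FDH1 (-2.30, adjusted p = 0.0319 in limma) and NCA3 (-2.07, adjusted p = 0.0435 in limma). FDH1, formate dehydrogenase, fell from 828 to 150 RPKM and from 400.3 to 89.8 RPKM. All 6 moved the same way in both cycles, which their choice as the largest calls from these same libraries favours.

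These calls depend on the scaling, on single libraries and, for the genes that were lower, on the block. Rescaled to the control RNAs, 0 genes were called higher and 2 lower in the second against the first position, and by the median ratio 72 and 14. With the cycle as a replicate block 134 were higher and 9 lower, of which 126 and 8 were among the 163 and 30. Leaving out any of time points 5, 6, 15, 16, 8 or 19 left 0 calls, leaving out time point 9 left 54 higher and 3 lower, and leaving out time point 18 gave 410 and 85. Without time point 7, and likewise without time point 17, 239 were higher and 241 lower.

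**Figure D5:**
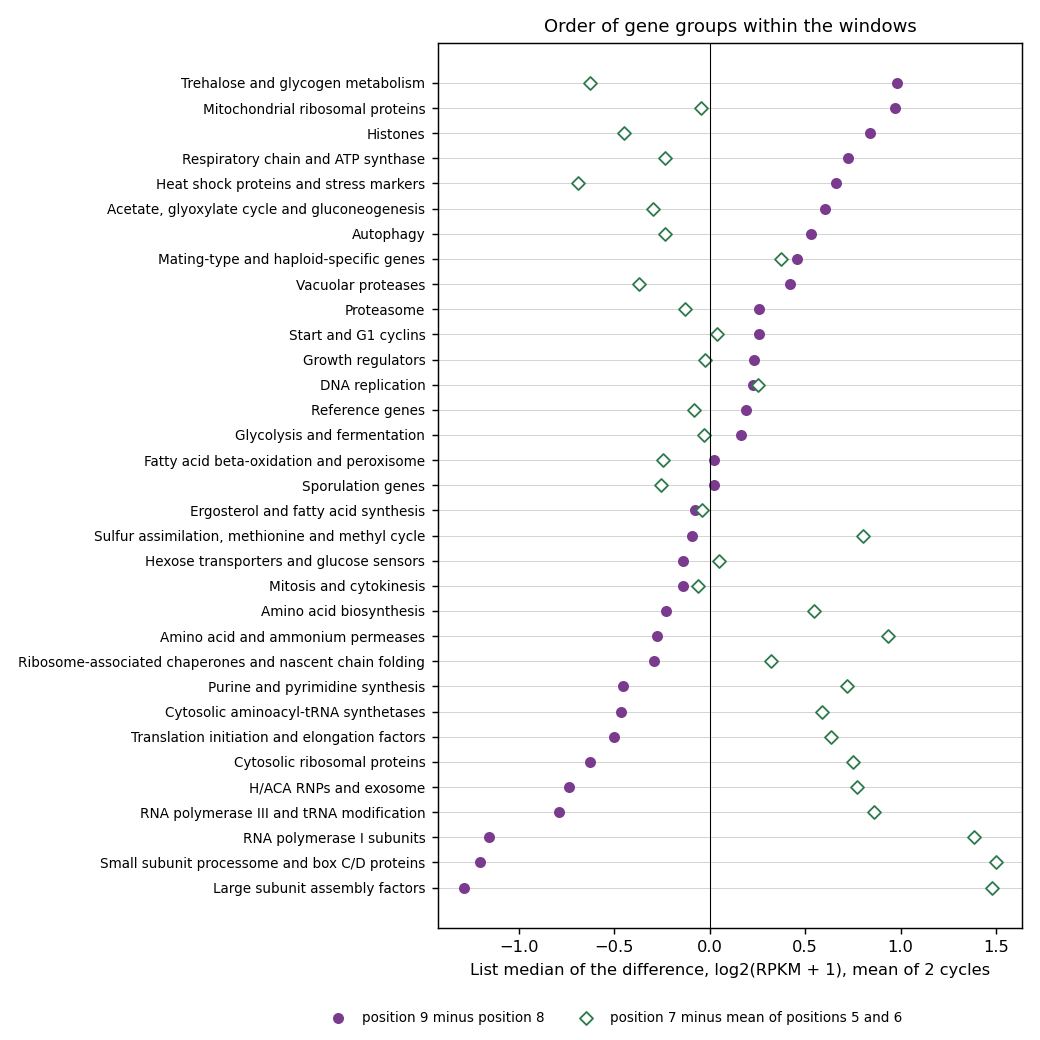
For each gene list, filled points give the median difference of position 9 from position 8 and open diamonds that of position 7 from the mean of positions 5 and 6, on the log2(RPKM + 1) scale as means of 2 cycles. The ribosome assembly lists lie at the bottom, with medians of up to 1.50 at position 7 and down to -1.29 from position 8 to 9. The trehalose and glycogen list and the mitochondrial ribosomal proteins lie at the top, with medians of 0.98 and 0.97 from position 8 to 9.

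Position 7, the last before the burst window, was tested against the mean of positions 5 and 6. In cycle 2 this position is time point 17, where the small subunit processome stood at 2.17, above the 1.89 at time point 18. The test therefore cannot tell genes that moved ahead of the burst from genes already at burst level in that library. In this test 312 genes (5.36%) were called higher and 17 (0.292%) lower, beside a median of 0.06 over all genes. Of the small subunit processome 55 of 65 genes rose, of the large subunit factors 61 of 79, of RNA polymerase I 5 of 11 and of purine and pyrimidine synthesis 12 of 38. Of the cytosolic ribosomal proteins 6 of 137 were called, while all 137 lay above 0 with a median of 0.75, beside 0.72 for the purine and pyrimidine list and 1.50 for the small subunit processome. The genes that rose most were AQR1, a plasma membrane transporter (3.44), NSR1 (3.09) and AAH1, adenine deaminase (3.08), each with an adjusted p of 0.0395 in limma. AQR1 stood at 8.59 RPKM at time point 7 and 64.8 RPKM at time point 17, and at 10.0, 1.05, 3.02 and 2.15 RPKM at the burst. The genes that fell most were IZH4 (-1.49, adjusted p = 0.0311 in limma), HRP1 (-1.34, adjusted p = 0.0395 in limma) and YPL238C (-1.32, adjusted p = 0.0459 in limma).

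In 311 of the 312 genes time point 17 was above time point 7, so the size of the rise rests mainly on the second cycle. Leaving out any single library other than time point 7 left 0 calls, and with the cycle as a replicate block there were also 0. Leaving out time point 7 gave 809 higher and 238 lower. By the median ratio the split was 5 higher and 6 lower, and with the control RNAs 27 and 1.

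Whether the burst change differed between the cycles was tested as an interaction in limma. No gene of 5820 was called (0 in each direction, 0.0%), 42 genes had an unadjusted p under 0.05, and the smallest adjusted p was 0.937. The median SE of this difference was 0.33 on the log2 scale, against 0.16 for the burst change itself. For NSR1 it was -1.51 ± 2.02, so this test could not show differences of that size. A p that misses the threshold does not show that the cycles were alike. Fitted on cycle 1 only, 583 genes were called higher and 429 lower at the burst, and on cycle 2 only, where time point 17 is 1 of 3 earlier libraries, 82 and 111.

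In the slow culture, time points 12 and 24 were set against time points 9, 10, 11, 21, 22 and 23, again windows chosen with the values known. There, as a description, 1023 genes (17.6%) were called higher and 789 (13.6%) lower, and with the control RNAs the split was 2092 to 379. RPL3 ranged from 559 over 595 to 691 RPKM before and stood at 2182 and 1910 RPKM at the slow burst. NSR1 ranged from 64.7 over 95.5 to 179 RPKM before and stood at 670 and 345 RPKM, a change of 2.20. ADH2 ranged from 1742 over 1973 to 2247 RPKM before and stood at 271 and 170 RPKM. All 3 moved in the direction seen in the fast culture, without overlap.

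Other genes differed in size between the cultures. TDH3 changed by -3.15 in the slow and -1.40 in the fast culture, and 15 of 21 genes of glycolysis and fermentation were called lower in the slow against 4 in the fast culture. AGA1 changed by 1.30 in the slow and 2.99 in the fast culture, and GIC2 by 4.99 and 3.34. The slow sampling interval was 36 min, and the slow burst window held a single time point per cycle. Which part of the fast burst that time point matches was not tested, and neither was the difference between the cultures.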

How the data were processed

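The authors deposited 1 table of RPKM values for 44 libraries. Per the file headers, reads were counted by HOMER on the sense strand over gene bodies of build sacCer3 plus 92 control RNAs, and the deposited length of each gene body in bases was used as it stands. TopHat2 2.0.10 and FastQC 0.10.1 are named in the submitters' processing notes. Those notes do not state what was done with multiply matching reads. Low RPKM values were whole multiples of what 1 read is worth (tolerance 0.1), which gave the depth.

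The members, windows and 33 gene lists were chosen with earlier results of these data known. Genes were tested where their mean over all libraries reached 1 RPKM (5820 of 6692) with limma 3.58.1 in R 4.3.3 on log2(RPKM + 1), which understates changes of low genes. Called genes passed a Benjamini-Hochberg adjusted p of 0.05 and a 2-fold change. Fits used positions as groups for order and an interaction for cycles, and were tested on simulated data. Named genes were the 8 largest called rises and falls without overlap, the 3 largest changes per list, called regulators, the 3 largest per direction of each test and 12 fixed genes, and values are shown for some of these. Promoter windows came from the RefSeq genome, whose starts and ends matched 6000 of 6008 genes, and 5805 of 5809 windows ended at an ATG. Python 3.11.15 with pandas 2.3.3 and matplotlib 3.10.9 was used.

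Alternatives were the pseudocount, the filter, 2 other scalings, a variance trend, single libraries left out, other windows and the cycle as a block. Leaving out time points 7 and 17 together, and giving results throughout without time point 17, was chosen after seeing the data.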

Additional observations from a re-analysis of the deposited data

Results flagged for a closer look

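In each group of libraries the distance of the outermost library to its nearest neighbour was divided by the whole range of the group. Genes and lists were on the log2(RPKM + 1) scale, and depth and control RNA share were used as they stand. A library was singled out when this ratio passed Dixon's 95% critical value for the 6 libraries before the burst or for the 4 burst libraries. By chance about 1 in 20 independent groups would pass. The groups examined were gene lists, named genes partly picked from these same values, depth and control RNA share. They are not independent, so the number that passed is not compared with chance. Of 320 groups examined 62 passed, 54 of them through time point 17.

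Time point 17 was the highest of the 6 libraries for the list medians of cytosolic ribosomal proteins (0.656), translation factors (0.6724), cytosolic aminoacyl-tRNA synthetases (0.7403), chaperones of nascent chains (0.6372), purine and pyrimidine synthesis (0.6305), sulfur assimilation (0.76) and amino acid biosynthesis (0.7587). It was the lowest for heat shock proteins (0.6571), trehalose and glycogen (0.7949), beta-oxidation (0.7355), acetate and glyoxylate genes (0.7221), autophagy (0.6956), vacuolar proteases (0.7702) and the proteasome (0.7449).

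Among single genes, time point 17 was the highest for SCW10 (0.6702), RPA190 (0.6306), RPL9A (0.6397), YEF3 (0.6396), TEF4 (0.7757), TEF1 (0.6784), KRS1 (0.6258), HTS1 (0.7792), FRS1 (0.89), SSB1 (0.6995), SSB2 (0.7603), ZUO1 (0.7741), SAM1 (0.6666), MET3 (0.6754), MET6 (0.6411), LEU9 (0.6809), ERG4 (0.6722), SUR4 (0.7006), RPL3 (0.7912) and CLN3 (0.6655). It was the lowest for FOX2 (0.7039), CTA1 (0.6562), POX1 (0.706), NDE2 (0.8599), HSP12 (0.635), SSA3 (0.7871), GIP2 (0.7695), PIG2 (0.6937), ATG34 (0.6733), YLR312C (0.6719), ATG33 (0.7169), PAI3 (0.7), RPN8 (0.6479), CRF1 (0.7177), SPS100 (0.7297), TPK2 (0.8108), FDH1 (0.9126), GDB1 (0.792), CLN1 (0.6703) and GSY2 (0.728). Why this library stood apart was not tested.

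Each item was examined in both windows, and 55 groups passed before the burst but only 7 at the burst. Nothing is read from these 7, since some groups pass by chance. Among the 4 burst libraries, time point 8 was the lowest for the DNA replication list (0.9615) and the highest for CTA1 (0.8361), FAT3 (0.8659), MET6 (0.9426) and ALP1 (0.8992). Time point 19 was the lowest for the permease list (0.859) and time point 18 the highest for SPS100 (0.8441). In depth, time point 6 was the highest of the 6 earlier libraries (0.6762).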

How the results depend on the processing

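Counts are given as genes higher and lower. At the burst, with 518 and 400 genes, single libraries left out gave 449 to 825 and 337 to 459. Cycle 2 only gave 82 and 111, position 7 alone as the earlier window 48 and 161, and leaving out time points 7 and 17 gave 906 and 470. An adjusted p under 0.05 at any size gave 1575 and 1055, and no overlap with a 2-fold change 291 and 327. With the cycle as a replicate block the counts were 502 and 397. In the second against the first burst position, with 163 and 30, left-out libraries gave 0 to 410 and 0 to 241. There no filter gave 38 and 0, a minimum of 10 RPKM 183 and 48, the median ratio 72 and 14, control RNAs 0 and 2, and the replicate block 134 and 9. At position 7, with 312 and 17, left-out libraries gave 0 to 809 and 0 to 238. There no filter gave 1 and 1, a pseudocount of 10 gave 7 and 2, the median ratio 5 and 6, control RNAs 27 and 1, and the replicate block 0 and 0. The cause was not tested. The cycle difference had 0 calls under every alternative run. In the slow culture control RNAs gave 2092 and 379, and left-out libraries 989 to 1061 and 691 to 921. With 2 libraries per position, the order of the groups within the windows rests on 2 cycles of 1 culture, and depth limits values under 5 RPKM, which occur in AQR1, ALP1, SNZ2 and YPL238C among the genes named above.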
